A study of Homo sapiens with 12 samples.

Results

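The HOX gene clusters were followed in 786-O, a human cell line derived from clear cell renal cell carcinoma (ccRCC) that lacks working VHL, in which the hypoxia factor HIF2A is therefore not degraded. The members were the 39 protein-coding genes of the deposited table whose symbol is HOXA, HOXB, HOXC or HOXD followed by a number, out of 62702 genes read. Expression was measured by BRB-seq, a barcoded method that reads only the 3′ ends of polyadenylated transcripts, in 12 libraries. Of the 4 lines, 3 carried doxycycline-inducible short hairpin RNAs (shRNAs): one set aimed at EPAS1, which encodes HIF2A (shHIF2A), one at the AP-1 genes JUN, JUNB and JUND (shJUNs), and one at YAP1 and WWTR1, which encode YAP and TAZ (shYAPTAZ). The fourth was the parental line. All 4 lines received doxycycline for 72 h, and the selection drugs (puromycin, blasticidin, hygromycin) depended on the number of genes silenced. A control hairpin was not among the lines analysed here, so hairpin, selection and knockdown cannot be told apart from one another. The labels call the 3 libraries of each line technical replicates, so the p-values below measure only the spread between those libraries.

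HOX genes encode homeodomain transcription factors that give cells their position along the body axis. In mammals they lie in 4 clusters, and within each cluster the genes of low paralog number, at the 3′ end, are used in anterior tissues and those of high number, at the 5′ end, in posterior tissues. Adult cells keep much of the pattern of their origin, Polycomb and trithorax complexes hold it, and HOX proteins bind DNA together with cofactors of the PBX and MEIS families. The kidney arises from intermediate mesoderm, where in the mouse the paralog group 11 genes are needed for the metanephric kidney to form.

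On hg38 the HOXA cluster has 11 genes on chromosome 7, the HOXB cluster 10 genes on chromosome 17 (48528526 to 48728750), the HOXC cluster 9 genes on chromosome 12 (53938831 to 54056030) and the HOXD cluster 9 genes on chromosome 2 (176092721 to 176190907). HOXA and HOXB genes are transcribed from the minus strand and HOXC and HOXD genes from the plus strand. The set of RefSeq promoters used here (GRCh38.p14) held those of 20 of the 39 members. Its windows of 300 bases run from 250 bases before to 50 bases after the start of transcription. Members outside the set, HOXB6, HOXB8 and HOXB9 among them, were not scanned for motifs. The 5 windows below belong to HOXA10 (2 start sites), HOXA7, HOXD8 and HOXA9. They are the 4 members with a promoter in the set used here, called in at least 1 knockdown line, that had the smallest p for a difference among the 4 groups. Each is written 5′ to 3′ on the strand of its gene. Capitals mark matches, on either strand, to the core motifs of the factors silenced here: GGAATG for TEAD, the DNA-binding partner of YAP and TAZ, TGANTCA for AP-1, and ACGTG or GCGTG for HIF.
HOXA10, chr7:27179812-27180111, minus strand: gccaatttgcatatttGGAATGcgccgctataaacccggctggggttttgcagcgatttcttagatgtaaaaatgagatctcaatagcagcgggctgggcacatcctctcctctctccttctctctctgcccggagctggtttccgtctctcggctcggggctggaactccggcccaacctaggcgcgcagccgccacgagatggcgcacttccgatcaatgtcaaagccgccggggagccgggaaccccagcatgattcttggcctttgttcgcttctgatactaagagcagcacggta
HOXA10, chr7:27174271-27174570, minus strand: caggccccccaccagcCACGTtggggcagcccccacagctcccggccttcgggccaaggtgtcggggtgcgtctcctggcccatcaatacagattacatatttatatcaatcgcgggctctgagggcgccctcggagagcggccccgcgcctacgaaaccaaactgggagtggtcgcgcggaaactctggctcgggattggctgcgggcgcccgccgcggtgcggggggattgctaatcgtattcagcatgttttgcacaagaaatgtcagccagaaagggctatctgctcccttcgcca
HOXA7, chr7:27156626-27156925, minus strand: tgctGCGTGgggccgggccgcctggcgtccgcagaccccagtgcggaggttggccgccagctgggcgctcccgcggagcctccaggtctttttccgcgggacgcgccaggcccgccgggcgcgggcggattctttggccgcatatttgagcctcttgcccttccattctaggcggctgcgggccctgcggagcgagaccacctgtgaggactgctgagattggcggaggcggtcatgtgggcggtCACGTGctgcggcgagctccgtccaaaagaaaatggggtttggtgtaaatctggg
HOXD8, chr2:176129455-176129754, plus strand: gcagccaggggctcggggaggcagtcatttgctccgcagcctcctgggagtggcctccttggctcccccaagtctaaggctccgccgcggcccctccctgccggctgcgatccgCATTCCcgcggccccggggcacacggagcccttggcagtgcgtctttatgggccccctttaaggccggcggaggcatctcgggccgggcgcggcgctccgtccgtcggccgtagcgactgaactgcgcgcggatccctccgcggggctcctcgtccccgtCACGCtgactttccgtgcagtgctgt
HOXA9, chr7:27165488-27165787, minus strand: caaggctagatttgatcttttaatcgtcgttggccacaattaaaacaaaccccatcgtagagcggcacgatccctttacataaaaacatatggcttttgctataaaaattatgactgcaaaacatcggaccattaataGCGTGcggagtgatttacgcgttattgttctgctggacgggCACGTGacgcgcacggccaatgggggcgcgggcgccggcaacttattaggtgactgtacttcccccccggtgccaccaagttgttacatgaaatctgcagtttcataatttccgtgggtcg
The first HOXA10 window held 1 TEAD match and the second 1 HIF match. HOXD8 had 1 TEAD and 1 HIF match, and HOXA7 and HOXA9 had 3 HIF matches each, of which a pair overlapped within the palindrome CACGTG. Of the 27 promoter windows of the 20 matched members, 8 held TEAD letters, against 14.0% of all 34796 promoters, and 19 held HIF letters, against 48.4%. AP-1 letters were in 0 of the 27, against 7.73% of all promoters. The median number of CpG dinucleotides was 22 in the 27 member windows and 14 in all windows, at a median GC content of 58.0% and 58.7%. A match is a string of letters in a window, not a measured site.

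Total counts per library ran from 2272459 to 4469956, and 3 counts in 1 library equalled 0.666 to 1.36 CPM (counts scaled to the size of the library, with TMM factors). The 9 renal and ccRCC markers summed to 10400 to 10800 CPM in shHIF2A, 14400 to 15300 CPM in shJUNs, 15400 to 16000 CPM in shYAPTAZ and 14000 to 17500 CPM in parental cells. PAX8, the renal lineage factor, averaged 88.9 to 101 CPM in the 4 lines, and CA9 1.29 to 3.67 CPM. The sums of 4 blood markers and of 3 endothelial markers did not exceed 1.05 CPM in any library. The 3 fibroblast markers summed to 15.9 to 24.5 CPM in shHIF2A, 6.7 to 10.4 CPM in shJUNs, 0 to 2.72 CPM in shYAPTAZ and 8.2 to 17.1 CPM in parental cells, nearly all of it LUM and PDGFRB, with DCN at or below 0.296 CPM in each mean. The part of these markers in the results below was not tested. EPAS1 averaged 16.0 CPM in shHIF2A, but also 37.1 CPM in shJUNs and 113 CPM in shYAPTAZ, against 203 CPM in parental cells. JUND averaged 38.6 CPM in shJUNs, 220 CPM in shHIF2A and 170 CPM in shYAPTAZ, against 355 CPM in parental cells. JUN averaged 85.6 CPM in shJUNs, 80.2 CPM in shHIF2A and 155 CPM in shYAPTAZ, against 153 CPM in parental cells. JUNB averaged 113 CPM in shJUNs and 192 CPM in parental cells (adjusted p = 0.034, edgeR), a call lost in 7 of the 18 alternatives. YAP1 averaged 14.1 CPM in shYAPTAZ and 65.4 CPM in parental cells, and WWTR1 153 CPM in shYAPTAZ and 311 CPM in parental cells. Against parental, WWTR1 was higher in shHIF2A by 0.70 (log2, adjusted p = 0.00181, edgeR), under all alternatives, and in shJUNs by 0.50 (0.0169). The shJUNs call was lost without parental replicate 1 (0.0846), shJUNs replicate 1 (0.07) or shJUNs replicate 2 (0.0687). YAP1 was called in neither of these lines. The 3 comparisons with parental cells share the parental libraries.

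The shYAPTAZ libraries spread most. The median absolute deviation of HOX genes from their group mean was 0.396 and 0.398 on the log2 scale in shYAPTAZ replicates 1 and 3 and 0.152 to 0.247 in the other 10 libraries. HOXA5, for example, had 150, 118 and 45.5 CPM in the 3 shYAPTAZ libraries.

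All 4 clusters were on in 786-O, each over part of its length. Counts were found for 33 of the 39 genes. The filter on low counts left 31 genes for testing: all 11 of HOXA, 8 of HOXB, 5 of HOXC and 7 of HOXD. The 6 genes with no count in any library were HOXB1 at the 3′ end of its cluster, HOXC5 within HOXC, and HOXC12, HOXC13, HOXD12 and HOXD13 at the 5′ ends. No count in 41767006 allows a level of up to 0.0718 CPM, for counting error only. The last 500 exonic bases of HOXC5 are shared entirely with annotated readthrough genes of the same strand, so its reads may have gone uncounted. Under the filter fell HOXB13, with 13 counts in all, and HOXC11, with 23 counts in all and 0 in the 3 parental libraries, which allows up to 0.299 CPM there. HOXA was the one cluster with counts for every gene.

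**Figure D1:**
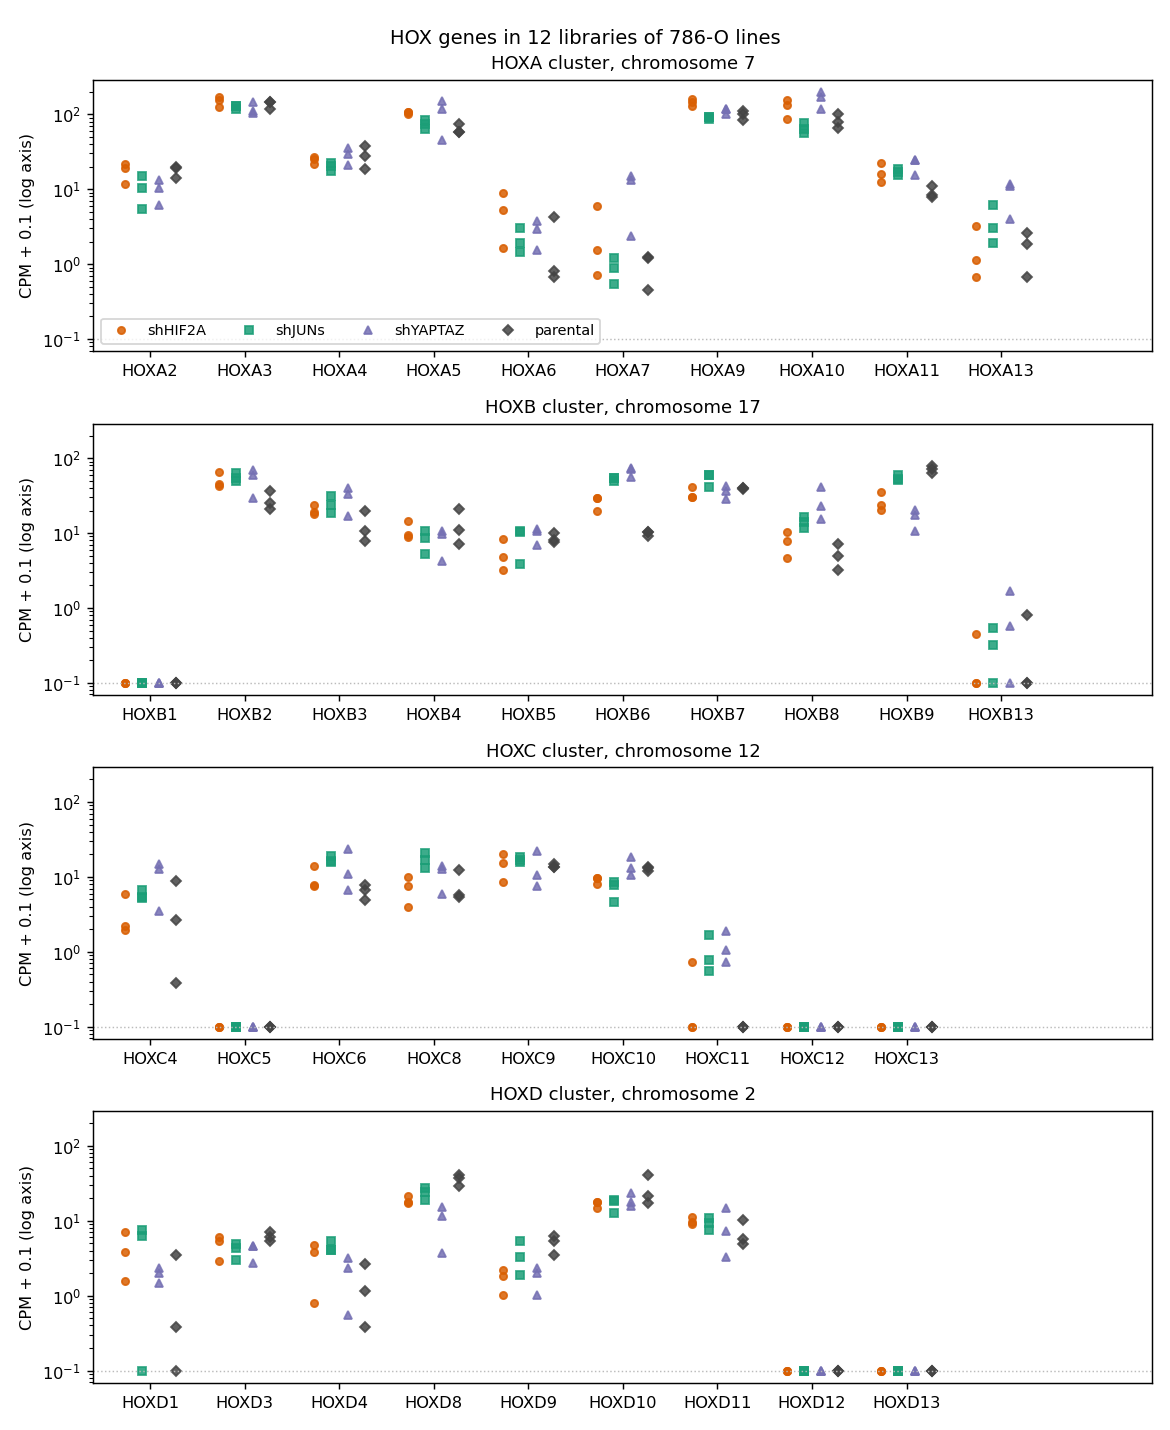
Levels of HOX genes in the 12 libraries, in CPM plus 0.1 on a log axis, with 1 panel per cluster and genes in the order of their paralog numbers. Each point is a library; the dotted line marks no count, where HOXB1, HOXC5, HOXC12, HOXC13, HOXD12 and HOXD13 lie in all 12 libraries.

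Per kilobase of annotated exon, the highest parental levels were 37.0 CPM per kb for HOXA5, 32.6 for HOXA9, 31.8 for HOXA3, 27.6 for HOXB9, 25.8 for HOXB7 and 22.1 for HOXA10. The order of these 6 is loose, since counting at 3′ ends need not scale with length and SDs over 3 libraries reached 17.3 CPM, for HOXA10. The next gene was HOXA4, at 16.2 CPM per kb. At the other end were HOXA13, HOXA7 and HOXD1, each under 1 CPM per kb in parental cells. The HOX genes that dominated this kidney line were thus of paralog groups 3 to 10, and the paralog group 11 genes were lower: HOXA11 at 3.35 and HOXD11 at 3.24 CPM per kb.

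The 39 genes summed to 896 ± 75.4 CPM in shHIF2A, 820 ± 50.8 CPM in shJUNs, 945 ± 165 CPM in shYAPTAZ and 760 ± 49.9 CPM in parental cells (SD, n = 3 each). HOXA held 68.3% of the HOX sum in shHIF2A, 51.2% in shJUNs, 62.0% in shYAPTAZ and 58.7% in parental cells. HOXB held 20.3%, 33.0% and 26.3% of it in shHIF2A, shJUNs and shYAPTAZ, and 24.6% in parental cells. The HOXA sum was 535 to 661 CPM in shHIF2A, 387 to 443 CPM in shJUNs, 454 to 700 CPM in shYAPTAZ and 404 to 476 CPM in parental cells, so that only shHIF2A did not overlap with parental. The HOXB sum was 162 to 196 CPM in shHIF2A, 249 to 283 CPM in shJUNs, 221 to 274 CPM in shYAPTAZ and 181 to 191 CPM in parental cells. Here both shJUNs and shYAPTAZ lay above all parental libraries. The HOXB mean was 246 CPM in shYAPTAZ and 187 CPM in parental cells, where HOXB6 alone averaged 67.7 and 9.76 CPM. The rise of the HOXB mean in shYAPTAZ was thus about that of HOXB6 alone.

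The HOXC sum was 31.5 to 55.8 CPM in shHIF2A, 59.5 to 67.8 CPM in shJUNs, 34.7 to 91.7 CPM in shYAPTAZ and 39.3 to 47.8 CPM in parental cells, and only shJUNs did not overlap with parental. The 636 other tested genes of chromosome 12, where HOXC lies, had a median log2 fold change of 0.29 in shJUNs against parental, and the part of that shift in the HOXC values was not tested. On chromosomes 2, 7 and 17 the corresponding medians lay between -0.16 and 0.07 in the 3 knockdown lines. The HOXD sum was 53.9 to 63.6 CPM in shHIF2A, 57.1 to 79.2 CPM in shJUNs, 35.9 to 62.7 CPM in shYAPTAZ and 67.8 to 104 CPM in parental cells. In both shHIF2A and shYAPTAZ it lay below all parental libraries. The HOXD means were 58.9 CPM in shHIF2A, 46.6 CPM in shYAPTAZ and 82.5 CPM in parental cells. HOXD8 alone averaged 18.8, 10.2 and 35.7 CPM in these lines, and so made up much of the difference. Sums were described and not tested. In bulk RNA, fewer cells that express a gene and less RNA per cell cannot be told apart.

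**Figure D2:**
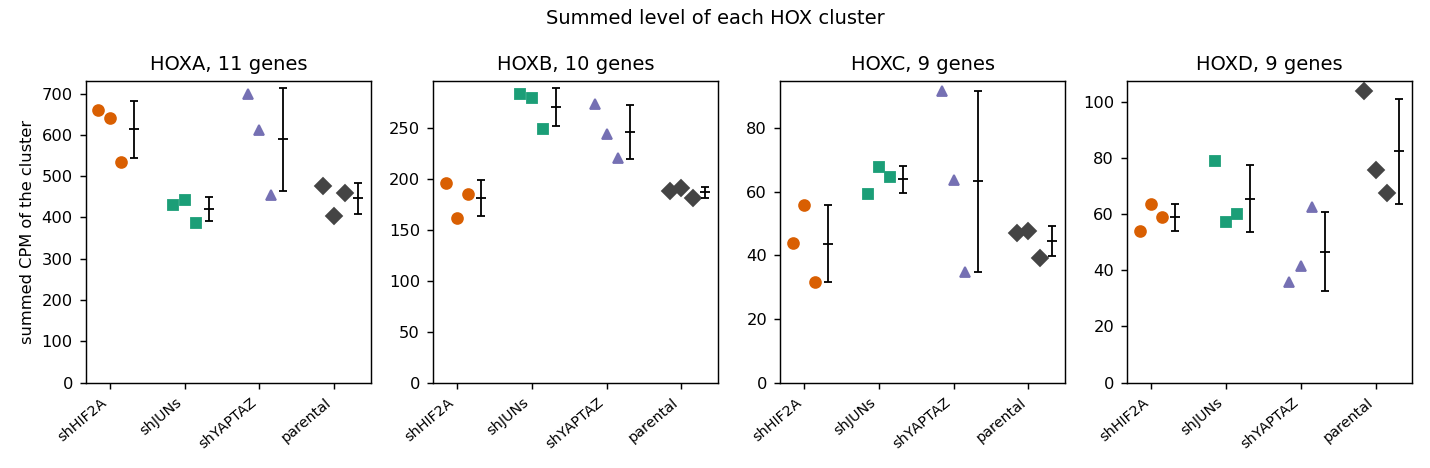
Summed CPM of each HOX cluster per library, for shHIF2A, shJUNs, shYAPTAZ and parental cells; points are libraries and the black bar is the mean ± SD of 3. The HOXB sum was above all parental libraries in shJUNs and shYAPTAZ, and the HOXD sum below them in shHIF2A and shYAPTAZ. HOXB6 made up much of the HOXB difference in shYAPTAZ, and HOXD8 much of the HOXD differences.

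Among the 4 lines, 10 of the 31 tested HOX genes differed by edgeR's quasi-likelihood test at a Benjamini-Hochberg adjusted p under 0.05: HOXA7, HOXA9, HOXA10, HOXA11, HOXA13, HOXB2, HOXB6, HOXB8, HOXB9 and HOXD8. The same test called 38.7% of all 12301 genes, against 32.3% of the 31. Against parental cells, 5 HOX genes were called in shHIF2A (4 higher, 1 lower) against a background of 18.6% of genes (9.84% higher, 8.8% lower). In shJUNs 4 were called, all higher, against a background of 19.3% (10.3% higher), and in shYAPTAZ 10 were called (8 higher, 2 lower) against 25.3% (13% higher, 12.3% lower). In either direction these counts are 16.1%, 12.9% and 32.3% of the 31, near the background, and are not a result about the clusters as a whole. By direction, 12.9%, 12.9% and 25.8% of the 31 were higher and 3.23%, 0% and 6.45% lower in shHIF2A, shJUNs and shYAPTAZ. The share higher in shYAPTAZ stood above the 13% of all genes, and the members were not tested as a set. No HOX gene was called lower in shJUNs by edgeR, or by DESeq2, where 8.93% of all genes were by edgeR. HOXC10 alone was lower there at an unadjusted p under 0.05 (1 gene), with a log2 fold change of -0.88 ± 0.39. Their median log2 fold changes were 0.13, 0.23 and 0.45 in shHIF2A, shJUNs and shYAPTAZ, against 0.01, 0 and 0.02 over all genes. Libraries did not overlap between knockdown and parental for 10 HOX genes in shHIF2A, 13 in shJUNs and 11 in shYAPTAZ, against 36.1%, 39.5% and 36.2% of all genes.

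These counts moved with single libraries. In shHIF2A the count was 3 without either of shHIF2A replicates 1 and 2, parental replicate 2 or parental replicate 3, and 8 without shYAPTAZ replicate 1 or 3, which belong to neither line compared. Every fit that left out a library made its own estimate of the spread and kept more than 12301 genes. Without shYAPTAZ replicate 1 or 3, 12733 and 12805 were kept. Without shHIF2A replicate 2 or parental replicate 2, where the count was 3, 12837 and 12793 were kept. The cause of these differences was not tested. For shJUNs the count was 1 without shJUNs replicate 1 and 2 without shJUNs replicate 3. Of the 31 genes, 18 were called in none of the 3 knockdown lines: 5 of HOXA, HOXB4, HOXB5 and HOXB7, 4 of HOXC and 6 of HOXD.

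**Figure D3:**
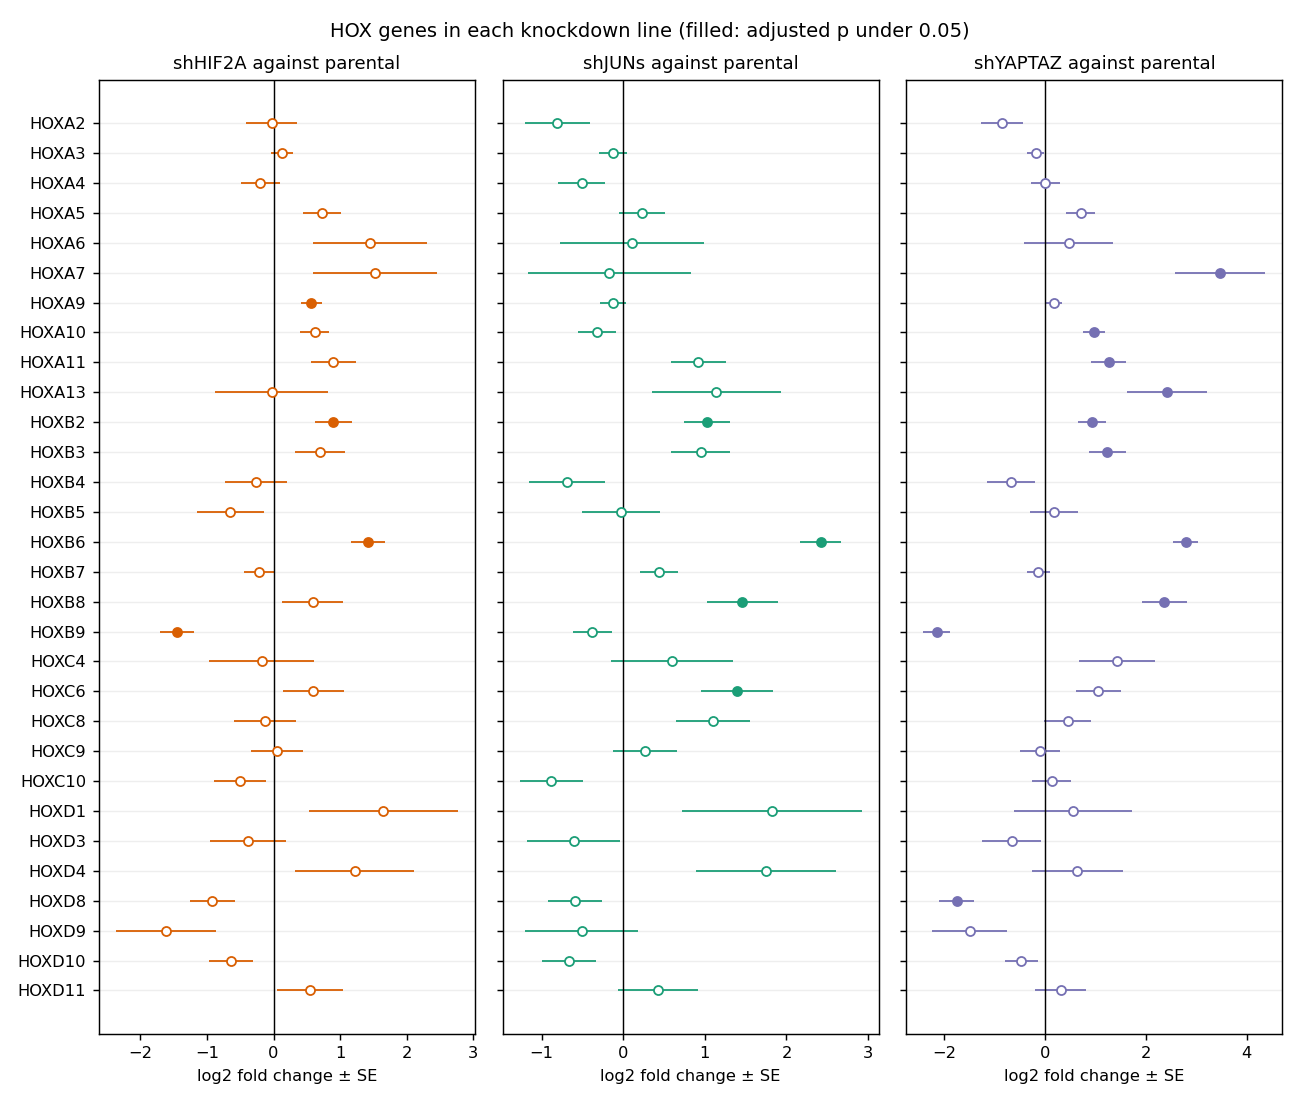
Log2 fold change ± SE of tested HOX genes in shHIF2A, shJUNs and shYAPTAZ against parental, with 1 panel per knockdown line, its own horizontal range in each, and filled points where the adjusted p was under 0.05. HOXB2 and HOXB6 are filled and above 0 in all 3 panels, and HOXB9 is filled and below 0 in shHIF2A and shYAPTAZ.

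The HOXB cluster carried the calls that were shared by the knockdown lines. HOXB6 (ENSG00000108511, chromosome 17, 48595751 to 48604992), a mid-cluster gene of trunk identity, was the HOX gene with the smallest p. It had 19.4, 29.6 and 29.4 CPM in shHIF2A, 54.1, 53.7 and 48.9 CPM in shJUNs, 74.9, 72.6 and 55.7 CPM in shYAPTAZ, and 10.1, 10.1 and 9.04 CPM in parental cells. All 9 knockdown libraries lay above all 3 parental ones. HOXB6 rose by a log2 fold change of 1.42 ± 0.25 (SE) in shHIF2A (adjusted p = 0.00041, edgeR), 2.42 ± 0.25 in shJUNs (3.26e-07) and 2.79 ± 0.25 in shYAPTAZ (2.89e-08). It was called in all 3 lines under all 18 alternatives. Between the knockdown lines, it was higher in shJUNs than in shHIF2A by 1.00 ± 0.23 (adjusted p = 0.00744), a call lost without shHIF2A replicate 1 (0.0564), and higher in shYAPTAZ than in shHIF2A by 1.37 ± 0.23 (0.000179), while shYAPTAZ and shJUNs differed by 0.37 ± 0.22 (0.278), not called. Of its last 500 exonic bases 33.2% are shared with HOXB-AS3 on the other strand, and the sources used here do not give the strand setting of the authors' counting. HOXB-AS3 itself averaged 0.741 CPM in shHIF2A, 4.39 CPM in shJUNs, 3.25 CPM in shYAPTAZ and 3.72 CPM in parental cells, and was called in none of the 3 comparisons with parental.

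HOXB9 (ENSG00000170689, chromosome 17, 48621156 to 48626358), an AbdB-class gene of the thoracic and lumbar body, moved the other way. It had 34.8, 20 and 23.5 CPM in shHIF2A, 51.7, 60.4 and 52.3 CPM in shJUNs, 10.4, 20.1 and 17.1 CPM in shYAPTAZ, and 72.2, 63.5 and 78.6 CPM in parental cells. The shHIF2A and shYAPTAZ libraries were all below the shJUNs libraries, which were all below the parental ones. HOXB9 fell by 1.45 ± 0.25 on the log2 scale in shHIF2A (adjusted p = 0.000273, edgeR) and by 2.15 ± 0.26 in shYAPTAZ (2.09e-06), under all 18 alternatives in both. In shJUNs its log2 fold change was -0.38 ± 0.24 (0.282), not called. Its level in shYAPTAZ was below that in shJUNs by a log2 difference of -1.76 ± 0.26 (4.42e-05), also under all alternatives, while the difference between shYAPTAZ and shHIF2A was -0.70 ± 0.26 (0.07), not called. Levels in shJUNs exceeded those in shHIF2A by 1.07 ± 0.25 (0.00855), a call lost without shHIF2A replicate 2 (0.0638).

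HOXB8 (chromosome 17, 48611377 to 48615292), a gene that blocks myeloid differentiation when overexpressed in mouse cells, lies 5.86 kb from HOXB9. It had 10.1, 7.8 and 4.55 CPM in shHIF2A, 16.2, 11.5 and 13.9 CPM in shJUNs, 41.3, 22.6 and 15.2 CPM in shYAPTAZ, and 4.89, 3.09 and 7.07 CPM in parental cells. In shYAPTAZ and shJUNs every library was above the parental ones, and in shHIF2A they overlapped. HOXB8 rose by 2.37 ± 0.44 in shYAPTAZ (log2, adjusted p = 0.000415, edgeR), under all alternatives, and by 1.46 ± 0.44 in shJUNs (0.0228). The shJUNs call was lost without parental replicate 1 (0.0627), parental replicate 2 (0.107), shJUNs replicate 1 (0.0809) or shJUNs replicate 3 (0.0592), within a range of 0.011 to 0.107 over the alternatives. Its level was higher in shYAPTAZ than in shHIF2A by 1.78 ± 0.43 (0.00521).

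HOXB2 (chromosome 17, 48540894 to 48545109), which patterns the hindbrain in the mouse, had 64.6, 42.4 and 45.5 CPM in shHIF2A, 62.6, 55.0 and 49.8 CPM in shJUNs, 69.9, 29 and 59.0 CPM in shYAPTAZ, and 20.6, 36.0 and 24.9 CPM in parental cells. All knockdown libraries but shYAPTAZ replicate 2 were above the parental ones. HOXB2 rose by 0.90 ± 0.28 in shHIF2A (log2, adjusted p = 0.0296, edgeR), 1.03 ± 0.28 in shJUNs (0.0121) and 0.94 ± 0.28 in shYAPTAZ (0.0177). These calls depended on single libraries. In shHIF2A, where the adjusted p ranged from 0.00527 to 0.145, the call was lost without parental replicate 1 (0.129), parental replicate 3 (0.086) or shHIF2A replicate 1 (0.145). In shJUNs it was lost without parental replicate 1 (0.0633) or shJUNs replicate 1 (0.0534). In shYAPTAZ it was lost without parental replicate 1 (0.0806), parental replicate 3 (0.0606), shYAPTAZ replicate 1 (0.0844) or shYAPTAZ replicate 3 (0.057), and with the 6 libraries of the comparison alone (0.0562).

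HOXB3, whose annotated extent covers HOXB4, HOXB5 and most of HOXB6, had 19.1, 18.1 and 23.8 CPM in shHIF2A, 23.3, 18.4 and 30.8 CPM in shJUNs, 33.1, 39.5 and 16.9 CPM in shYAPTAZ, and 19.9, 10.4 and 7.63 CPM in parental cells. Parental replicate 1 overlapped with each knockdown line. HOXB3 rose by 1.24 ± 0.37 in shYAPTAZ (log2, adjusted p = 0.0155, edgeR), and the call was lost without parental replicate 2 (0.0669), parental replicate 3 (0.0816) or shYAPTAZ replicate 2 (0.103). In the other 2 knockdown lines it was not called, though in shJUNs, at 0.95 ± 0.36 (0.0705), it was called with no filter (0.0414) and without parental replicate 1 (0.0173) or shYAPTAZ replicate 3 (0.04).

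The remaining tested HOXB genes did not pass the test against parental. HOXB7, whose mouse promoter is used to mark the ureteric bud, had 30.1, 30.3 and 40.6 CPM in shHIF2A, 59.5, 60.4 and 40.7 CPM in shJUNs, 28.1, 43.0 and 36.1 CPM in shYAPTAZ, and 39.4, 39.6 and 38.7 CPM in parental cells. HOXB4, which expands blood stem cells when overexpressed, had 9.28, 8.73 and 14.4 CPM in shHIF2A, 5.1, 10.4 and 8.49 CPM in shJUNs, 9.53, 4.14 and 10.6 CPM in shYAPTAZ, and 10.8, 20.8 and 7.07 CPM in parental cells. HOXB5 ran from 3.15 to 11.1 CPM over the 12 libraries. The shJUNs libraries lay above the parental ones for HOXB7, without a call, and overlapped with them for HOXB4 and HOXB5. HOXB7 spans HOXB8 and HOXB9 in its annotated extent, and HOXB5 lies 1.97 kb from HOXB6. Neighbours in this cluster differed in sign and size of change, with HOXB6 and HOXB8 higher and HOXB9 lower in shYAPTAZ.

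**Figure D4:**
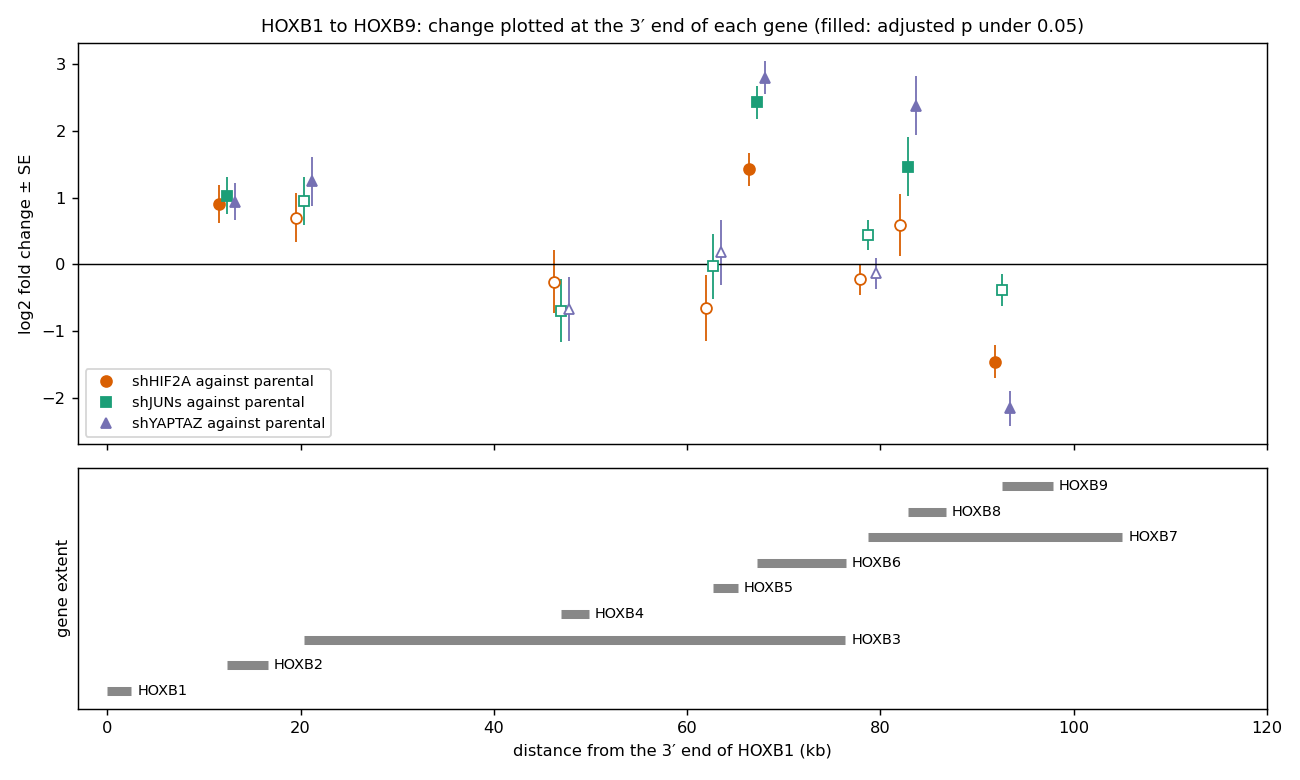
Log2 fold change ± SE of the 8 tested HOXB genes in shHIF2A, shJUNs and shYAPTAZ against parental, plotted at the 3′ end of each gene by its distance in kb from the 3′ end of HOXB1, with the annotated extent of each gene beneath and HOXB13 left out. Filled points had an adjusted p under 0.05; the 3 lines are set slightly apart sideways. In shYAPTAZ HOXB6 and HOXB8 lie above 0 and HOXB9, the next gene after HOXB8, below 0.

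In the HOXA cluster, the genes called in shYAPTAZ against parental were HOXA7, HOXA10, HOXA11 and HOXA13. HOXA9, which lies between HOXA7 and HOXA10, was not called there. HOXA10 (ENSG00000253293, chromosome 7, 27170605 to 27180261), known for its role in the uterus and in blood progenitors, had 156, 134 and 87.2 CPM in shHIF2A, 63.2, 76.9 and 56.8 CPM in shJUNs, 198, 168 and 116 CPM in shYAPTAZ, and 100, 65.8 and 79.4 CPM in parental cells. The shYAPTAZ libraries were all above the parental and the shJUNs libraries. HOXA10 rose by 0.97 ± 0.22 in shYAPTAZ against parental (log2, adjusted p = 0.00274, edgeR) and was higher in shYAPTAZ than in shJUNs by 1.29 ± 0.23 (0.000365), both under all alternatives. It was lower in shJUNs than in shHIF2A, by a log2 difference of -0.94 ± 0.22 (0.0112), a call lost on leaving out replicate 1 (0.0767) or 2 (0.056) of shHIF2A, or replicate 1 (0.0597) or 3 (0.0754) of shJUNs. Against parental, shHIF2A stood at 0.62 ± 0.22 (0.0553), not called, but called with no filter on low counts (0.0161) and without parental replicate 1 (0.0388), shHIF2A replicate 3 (0.0156), shYAPTAZ replicate 1 (0.0357) or shYAPTAZ replicate 3 (0.029).

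HOXA7 (chromosome 7, 27153716 to 27157936) had 2.27, 13.1 and 14.9 CPM in shYAPTAZ. Elsewhere it was low, with 1.45, 0.624 and 5.96 CPM in shHIF2A, 0.444, 0.801 and 1.12 CPM in shJUNs, and 0.349, 1.12 and 1.13 CPM in parental cells. The shYAPTAZ libraries were above all parental and shJUNs ones, and replicate 1 overlapped with shHIF2A. It rose by 3.47 ± 0.90 in shYAPTAZ against parental (log2, adjusted p = 0.00623, edgeR) and was higher there than in shJUNs by 3.64 ± 0.89 (0.00651). Both calls held under the 17 alternatives in which the gene passed the filter, which it did not with only the 6 libraries of either comparison. Its counts reached 10 only in shYAPTAZ replicates 2 and 3 (41 and 62) and shHIF2A replicate 3 (17). The gene had 9 counts in all in parental cells and 10 in shJUNs, so the size of both changes is uncertain. Against shHIF2A it stood at 1.95 ± 0.81 (0.0984), not called, but called without shYAPTAZ replicate 1 (0.042) or shHIF2A replicate 3 (0.0296). All of its last 500 exonic bases are shared with HOXA-AS3 on the other strand. HOXA-AS3 averaged 0.795 CPM in shHIF2A, 2.90 CPM in shJUNs, 3.81 CPM in shYAPTAZ and 2.87 CPM in parental cells, with no call in shYAPTAZ against parental (adjusted p = 0.772).

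HOXA11, of the paralog group that the mouse kidney requires, had 22.0, 15.9 and 12.3 CPM in shHIF2A, 15.5, 18.7 and 17 CPM in shJUNs, 15.4, 24.5 and 24.3 CPM in shYAPTAZ, and 7.68, 8.15 and 11 CPM in parental cells. All 9 knockdown libraries lay above the parental ones. The gene rose by 1.26 ± 0.34 in shYAPTAZ (log2, adjusted p = 0.00827, edgeR), under all alternatives. In shHIF2A it stood at 0.90 ± 0.34 (0.0684) and in shJUNs at 0.92 ± 0.34 (0.0585), called in neither, though in shJUNs it was called without shYAPTAZ replicate 1 (0.0454) and by DESeq2 (0.0404). No difference among the 3 knockdown lines was called for it. HOXD11, the same paralog in the HOXD cluster, ran from 3.18 to 14.5 CPM over the 12 libraries and was called nowhere.

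HOXA13, a gene of limb ends and the urogenital sinus, had 0.58, 3.12 and 1.05 CPM in shHIF2A, 5.99, 2.94 and 1.79 CPM in shJUNs, 10.9, 11.8 and 3.86 CPM in shYAPTAZ, and 1.75, 2.53 and 0.565 CPM in parental cells. Each shYAPTAZ library was above each parental and each shHIF2A library. HOXA13 rose by 2.42 ± 0.79 in shYAPTAZ against parental (log2, adjusted p = 0.0277, edgeR), and the call was lost without parental replicate 1 (0.0646), parental replicate 3 (0.102), shYAPTAZ replicate 1 (0.0689) or shYAPTAZ replicate 2 (0.109). Against shHIF2A it was higher by 2.44 ± 0.80 (0.035). That call ended in limma-voom (0.0579) and on leaving out shHIF2A replicate 1 (0.127), shHIF2A replicate 3 (0.107), shYAPTAZ replicate 1 (0.0861) or shYAPTAZ replicate 2 (0.129). Without shHIF2A replicate 2 that fold was 10.6 in place of 5.43. HOXA13 had only 2, 10 and 3 counts in the shHIF2A libraries and 16 counts in all in parental cells. The size of both changes is therefore uncertain.

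HOXA9, which drives leukaemia together with MEIS1, had 148, 161 and 131 CPM in shHIF2A, 92.3, 91.6 and 87.4 CPM in shJUNs, 116, 116 and 102 CPM in shYAPTAZ, and 102, 84.3 and 110 CPM in parental cells. The shHIF2A libraries were above all others. HOXA9 rose by 0.57 ± 0.16 in shHIF2A against parental (log2, adjusted p = 0.0149, edgeR), a call lost without parental replicate 2 (0.096) or shHIF2A replicate 2 (0.0831). It was lower in shJUNs than in shHIF2A by a log2 difference of -0.70 ± 0.16 (0.00773), lost without shHIF2A replicate 2 (0.0599) or shJUNs replicate 3 (0.0525). HOXA9 and HOXA10 share 27% and 26.3% of their exonic bases with other annotated genes, a readthrough gene of the same strand among them, but none of their last 500.

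HOXA5, a gene of lung and axial development in the mouse, had 108, 101 and 106 CPM in shHIF2A, 84.1, 74.8 and 63.9 CPM in shJUNs, 150, 118 and 45.5 CPM in shYAPTAZ, and 74.0, 58.2 and 58.5 CPM in parental cells. The shHIF2A libraries were all above the parental ones, and shYAPTAZ replicate 3 was below them. It was not called in shHIF2A, at 0.73 ± 0.28 (log2, adjusted p = 0.0818, edgeR), nor in shYAPTAZ, at 0.71 ± 0.29 (0.0778). Without shYAPTAZ replicate 3 it was called in shYAPTAZ (0.0002) and in shHIF2A (0.0041), and without shYAPTAZ replicate 1 in shHIF2A (0.0318). It was also called with no filter on low counts, in shHIF2A (0.00553) and in shYAPTAZ (0.00615), and in shHIF2A with the 6 libraries of that comparison alone (0.0096). The difference between shYAPTAZ and shJUNs was 0.48 ± 0.28 (0.276), not called, but called without shYAPTAZ replicate 3 (0.00277).

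HOXA2, HOXA3, HOXA4 and HOXA6 were called in no comparison. HOXA3, of the pharyngeal arches, had 153, 171 and 125 CPM in shHIF2A, 129, 128 and 118 CPM in shJUNs, 148, 112 and 104 CPM in shYAPTAZ, and 146, 119 and 146 CPM in parental cells. HOXA4 had 27, 25 and 21.7 CPM in shHIF2A, 22.0, 17.4 and 20.1 CPM in shJUNs, 35.4, 29.3 and 21.0 CPM in shYAPTAZ, and 18.8, 38.0 and 27.4 CPM in parental cells. Both overlapped between every knockdown line and parental. HOXA2 had 21.5, 11.5 and 18.9 CPM in shHIF2A, 10.2, 14.7 and 5.36 CPM in shJUNs, 13.2, 6.05 and 10.4 CPM in shYAPTAZ, and 14.0, 19.1 and 19.8 CPM in parental cells. Its shYAPTAZ libraries were all below the parental ones, without a call. HOXA6 ran from 0.565 to 8.76 CPM over the 12 libraries.

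**Figure D5:**
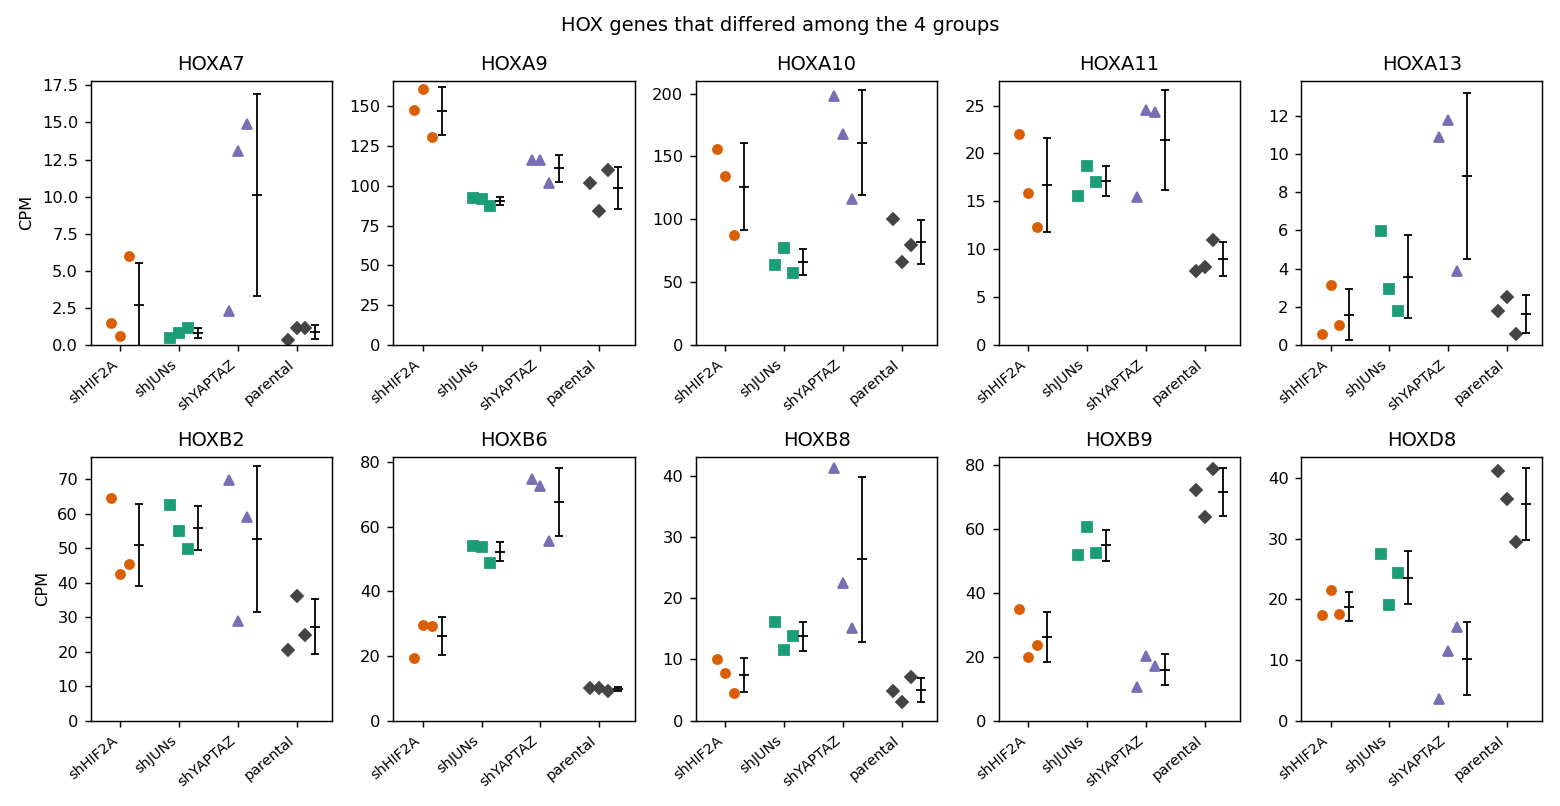
CPM per library of the 10 HOX genes that differed among the 4 lines, for shHIF2A, shJUNs, shYAPTAZ and parental cells; points are libraries, the black bar is the mean ± SD of 3, and each panel has its own scale from 0. HOXB6 is higher than parental in every knockdown library, and HOXB9 and HOXD8 are lower.

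In the HOXD cluster, HOXD8 (ENSG00000175879, chromosome 2, 176129694 to 176132695) was the one gene called. It had 17.4, 21.5 and 17.5 CPM in shHIF2A, 27.5, 19.0 and 24.4 CPM in shJUNs, 3.63, 11.5 and 15.4 CPM in shYAPTAZ, and 41.2, 36.6 and 29.4 CPM in parental cells. Every knockdown library was below every parental one, and the shYAPTAZ libraries were below all others. HOXD8 fell by 1.75 ± 0.35 on the log2 scale in shYAPTAZ (adjusted p = 0.000798, edgeR), under all alternatives. Its log2 fold change was -0.92 ± 0.34 in shHIF2A (0.0591), not called, though it was called under 7 of the 18 alternatives, without shYAPTAZ replicate 1 (0.0173) or replicate 3 (0.0346) among them. In shJUNs it was -0.59 ± 0.33 (0.226). The level in shYAPTAZ was below that in shJUNs by a log2 difference of -1.16 ± 0.35 (0.0261). This call was lost on leaving out replicate 1 (0.104) or 3 (0.0732) of shJUNs, or replicate 1 (0.0874) or 2 (0.0628) of shYAPTAZ, and with 6 libraries alone (0.0654). Against shHIF2A the difference was -0.83 ± 0.36 (0.114), not called, but called without shYAPTAZ replicate 3 (0.0273).

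Of the last 500 exonic bases of HOXD8, 83% are shared with HOXD-AS2 on the other strand. HOXD-AS2 moved the other way. It had 14.5, 19.6 and 17.5 CPM in shHIF2A, 15.5, 15.2 and 19.2 CPM in shJUNs, 21.8, 20.1 and 29.9 CPM in shYAPTAZ, and 4.89, 12.7 and 11.3 CPM in parental cells. All 9 knockdown libraries were above the parental ones. It rose by 1.30 ± 0.35 in shYAPTAZ (log2, adjusted p = 0.00811, edgeR), under all alternatives, and was not called in shHIF2A, at 0.82 ± 0.35 (0.107), or in shJUNs, at 0.78 ± 0.35 (0.126). The sources used here do not say how reads in the shared stretch were assigned, and its part in either result was not tested.

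HOXD10, of the lumbar spinal cord and hindlimb, had 14.8, 17.8 and 17.9 CPM in shHIF2A, 18.6, 12.6 and 18.1 CPM in shJUNs, 17.7, 15.6 and 23.1 CPM in shYAPTAZ, and 40.8, 21.1 and 17.2 CPM in parental cells. Parental replicate 1 stood above the rest, and no comparison was called. HOXD1, HOXD3, HOXD4 and HOXD9 averaged at most 6.07 CPM in any line. HOXD1 had no count in 1 shJUNs and 1 parental library, and all of its last 500 exonic bases are shared with genes of the other strand.

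Of the HOXC genes only HOXC6 was called. It had 7.54, 13.7 and 7.71 CPM in shHIF2A, 16.0, 18.7 and 15.6 CPM in shJUNs, 23.6, 10.8 and 6.51 CPM in shYAPTAZ, and 4.89, 7.59 and 6.5 CPM in parental cells. The shJUNs libraries were all above the parental ones, while the shYAPTAZ libraries spread across both. HOXC6 rose by 1.39 ± 0.44 in shJUNs (log2, adjusted p = 0.0298, edgeR), on the chromosome whose other genes had a median of 0.29 there. The call was lost when any 1 of the 6 shJUNs and parental libraries was left out, with adjusted p from 0.0526 without parental replicate 2 to 0.105 without parental replicate 1. In between were 0.0679 without parental replicate 3, 0.0643 without shJUNs replicate 1, 0.0917 without shJUNs replicate 2 and 0.0654 without shJUNs replicate 3. In shYAPTAZ against parental HOXC6 stood at 1.06 ± 0.45 (log2, adjusted p = 0.0924, edgeR), not called, but called without shYAPTAZ replicate 3 (0.0258).

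HOXC8 had 7.54, 9.98 and 3.85 CPM in shHIF2A, 13.1, 16.8 and 20.6 CPM in shJUNs, 12.7, 14.0 and 5.78 CPM in shYAPTAZ, and 5.58, 12.4 and 5.37 CPM in parental cells. HOXC9 had 15.1, 20 and 8.41 CPM in shHIF2A, 16.6, 15.5 and 18.5 CPM in shJUNs, 22.2, 10.5 and 7.47 CPM in shYAPTAZ, and 15, 13.5 and 13.6 CPM in parental cells. In both genes the shJUNs libraries lay above the parental ones, by 1.10 ± 0.45 for HOXC8 (log2, adjusted p = 0.0939, edgeR), which was called without parental replicate 2 (0.0412). HOXC10, of lumbar motor neurons in the mouse, had 7.83, 9.67 and 9.46 CPM in shHIF2A, 7.77, 8.55 and 4.47 CPM in shJUNs, 18.6, 13.1 and 10.6 CPM in shYAPTAZ, and 12.9, 11.8 and 13.6 CPM in parental cells. Its shHIF2A and shJUNs libraries were below the parental ones without a call. HOXC4 had 5.8, 1.87 and 2.1 CPM in shHIF2A, 5.33, 6.68 and 5.14 CPM in shJUNs, 12.7, 14.6 and 3.37 CPM in shYAPTAZ, and 8.73, 2.53 and 0.283 CPM in parental cells. Of its shYAPTAZ libraries, 2 lay above all parental ones and 1 among them. HOXC4 stood at 1.43 ± 0.75 in shYAPTAZ against parental (log2, adjusted p = 0.181, edgeR), not called, but called without parental replicate 1 (0.0237).

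Between knockdown lines, where the parental libraries play no part in the means, 4 HOX genes differed between shJUNs and shHIF2A (HOXB6 and HOXB9 higher, HOXA9 and HOXA10 lower in shJUNs), against 7.53% of all genes (4.36% higher, 3.17% lower). The count was 2 without shHIF2A replicate 1, 1 without shHIF2A replicate 2 and 2 without shJUNs replicate 3. Between shYAPTAZ and shHIF2A, 3 differed (HOXA13, HOXB6 and HOXB8, all higher in shYAPTAZ), against 18.4% (9.71% higher). No HOX gene was called lower there by edgeR or DESeq2, against 8.72% of all genes by edgeR, and 4 were lower at an unadjusted p under 0.05. Between shYAPTAZ and shJUNs, 4 differed (HOXA7 and HOXA10 higher, HOXB9 and HOXD8 lower in shYAPTAZ), against 16.1% (7.87% higher, 8.27% lower). Libraries did not overlap for 10, 7 and 8 HOX genes in these 3 comparisons, against 31.2%, 32.2% and 33.3% of all genes.

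The genes around and upstream of the HOX clusters were looked at as lists. Of 25 noncoding RNA genes of the clusters 8 were tested, and edgeR called 0 in shHIF2A, 1 in shJUNs and 3 in shYAPTAZ against parental, where it called 18.6%, 19.3% and 25.3% of all genes. For shHIF2A, DESeq2 called 0 as well and 4 had an unadjusted p under 0.05. Besides HOXD-AS2, shYAPTAZ held HOTAIRM1, an antisense RNA of the HOXA cluster, with 14.1, 6.05 and 7.23 CPM, against 32.8, 18.8 and 15 CPM in parental cells. It fell by 1.31 ± 0.40 on the log2 scale (adjusted p = 0.02, edgeR), a call lost without parental replicate 1 (0.143), shYAPTAZ replicate 2 (0.096) or shYAPTAZ replicate 3 (0.0668). HOXA10-AS had 36.3, 25.2 and 31.8 CPM in shYAPTAZ and 14.7, 19.7 and 16.4 CPM in parental cells, a log2 fold change of 0.87 ± 0.31 (0.0419) whose call was lost in 10 of 18 alternatives, with adjusted p up to 0.122. These were left out in turn: parental replicates 1 (0.122), 2 (0.0586) and 3 (0.0988), shJUNs replicates 1 (0.0531), 2 (0.054) and 3 (0.0546), and shYAPTAZ replicates 1 (0.115) and 3 (0.0925). HOTAIR averaged at most 0.35 CPM in the knockdown lines and had no count in parental cells. HOTTIP had counts in 1 library only. The miRNA genes of the clusters (MIR10A, MIR10B, MIR196A1, MIR196A2, MIR196B and MIR615) had no counts, and mature miRNAs, which carry no poly(A) tail, are not measured by the assay.

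Among the 9 cofactors of the TALE class, 7 were tested. None was called in shHIF2A by edgeR or DESeq2, with 0 at an unadjusted p under 0.05, and 2 were lower in each of shJUNs and shYAPTAZ, against 8.93% and 12.3% of all genes. PBX3 had 106, 93.3 and 128 CPM in shHIF2A, 94.1, 94.8 and 92.1 CPM in shJUNs, 54.9, 43.0 and 46.5 CPM in shYAPTAZ, and 146, 123 and 145 CPM in parental cells. It fell by 1.52 ± 0.17 on the log2 scale in shYAPTAZ (adjusted p = 1.05e-06, edgeR), under all alternatives, and by 0.56 ± 0.17 in shJUNs (0.0215). The shJUNs call was lost without parental replicate 1 (0.0647), parental replicate 3 (0.0641), shJUNs replicate 1 (0.0684), shJUNs replicate 2 (0.0652) or shJUNs replicate 3 (0.0785). MEIS1, the partner of HOXA9 in leukaemia, averaged at most 3.75 CPM in any line.

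Among the chromatin complexes that hold HOX patterns, the calls were as follows, against 18.6% of all genes called in shHIF2A, 19.3% in shJUNs and 25.3% in shYAPTAZ. Of 11 genes of Polycomb repressive complex 2, 2 were called in shHIF2A (1 higher, 1 lower), 2 in shJUNs (1 higher, 1 lower) and 4 in shYAPTAZ (1 higher, 3 lower). Its median log2 fold changes were -0.08 in shHIF2A, -0.17 in shJUNs and -0.18 in shYAPTAZ. EZH2, its main methyltransferase, averaged 52.1 CPM in shHIF2A, 64.9 CPM in shJUNs, 64.1 CPM in shYAPTAZ and 73.2 CPM in parental cells, without a call. EZH1, its paralog, had 2.27, 4.14 and 1.2 CPM in shYAPTAZ and 13.6, 11.5 and 10.7 CPM in parental cells, and fell by 2.24 ± 0.51 there (log2, adjusted p = 0.00251, edgeR), under all alternatives. Of 16 genes of Polycomb repressive complex 1, 2 were called in shHIF2A (1 higher, 1 lower), 4 in shJUNs (2 each way) and 5 in shYAPTAZ (3 higher, 2 lower). Its medians were -0.29 in shHIF2A, -0.06 in shJUNs and -0.15 in shYAPTAZ.

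KMT2A, the trithorax methyltransferase MLL that maintains HOX expression, was the 1 gene of its list of 14 called in all 3 lines. It had 43.2, 41.5 and 37.5 CPM in shHIF2A, 43.5, 50.5 and 43.4 CPM in shJUNs, 37.7, 38.2 and 36.6 CPM in shYAPTAZ, and 77.8, 77.3 and 66.1 CPM in parental cells. KMT2A fell by 0.85 ± 0.19 on the log2 scale in shHIF2A (adjusted p = 0.00298, edgeR), by 0.69 ± 0.19 in shJUNs (0.0121) and by 0.98 ± 0.19 in shYAPTAZ (0.000652). The shJUNs call was lost without shJUNs replicate 1 (0.0549) or shJUNs replicate 3 (0.0579), and the other 2 held under all alternatives. RBBP5 was the only other gene of the list called against parental, in shHIF2A, where it rose by 0.94 ± 0.30 (log2, adjusted p = 0.0301, edgeR). That call was lost without parental replicate 1 (0.129), parental replicate 2 (0.0863), shHIF2A replicate 1 (0.118) or shHIF2A replicate 3 (0.085).

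Retinoic acid switches on 3′ HOX genes in the embryo, and CDX factors act on middle and posterior ones. Of the 19 genes of this list 8 were tested, and CDX1, CDX2 and CDX4 had no counts. In shHIF2A 1 was higher and 3 were lower, in shJUNs 2 were higher and 2 lower, and in shYAPTAZ 1 was higher and 2 were lower, against 18.6%, 19.3% and 25.3% of all genes called in either direction. The medians of the 8 were -0.50 in shHIF2A, 0.30 in shJUNs and -0.18 in shYAPTAZ. DHRS3, a retinaldehyde reductase induced by retinoic acid, had 21.2, 16.2 and 10.9 CPM in shHIF2A, 40.4, 27.5 and 28.8 CPM in shJUNs, 17.3, 8.91 and 2.65 CPM in shYAPTAZ, and 113, 90.0 and 63.0 CPM in parental cells. It fell by 2.45 ± 0.40 on the log2 scale in shHIF2A (adjusted p = 0.000317, edgeR), by 1.46 ± 0.37 in shJUNs (0.0103) and by 3.31 ± 0.43 in shYAPTAZ (1.73e-05). The shJUNs call was lost without parental replicate 1 (0.0553), shJUNs replicate 2 (0.0526) or shJUNs replicate 3 (0.0509). RARA, a retinoic acid receptor, averaged 13.8 ± 2.79 CPM in shHIF2A, 14.8 ± 2.69 CPM in shJUNs, 18.9 ± 5.74 CPM in shYAPTAZ and 38.9 ± 10.3 CPM in parental cells (SD, n = 3 each). It fell by 1.49 ± 0.32 in shHIF2A (adjusted p = 0.00218, edgeR), 1.38 ± 0.31 in shJUNs (0.00296) and 1.05 ± 0.31 in shYAPTAZ (0.0159). The shYAPTAZ call was lost without parental replicate 1 (0.0706), parental replicate 2 (0.0624) or shYAPTAZ replicate 3 (0.0793).

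ALDH1A3, an enzyme that makes retinoic acid, was higher in all 3 lines. It had 24.1, 16.8 and 12.3 CPM in shHIF2A, 21.5, 16.0 and 13.9 CPM in shJUNs, 8.63, 9.87 and 8.92 CPM in shYAPTAZ, and 3.84, 3.09 and 4.52 CPM in parental cells. It rose by 2.21 ± 0.40 in shHIF2A (log2, adjusted p = 0.000495, edgeR), 2.16 ± 0.40 in shJUNs (0.000552) and 1.25 ± 0.41 in shYAPTAZ (0.0276). The first 2 held under all alternatives. In shYAPTAZ the call was lost in 7, with adjusted p up to 0.109, the libraries being parental replicate 1 (0.0607), parental replicate 2 (0.0964), shYAPTAZ replicate 2 (0.0709) and shYAPTAZ replicate 3 (0.0509).

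Of 23 protein-coding genes that flank the clusters, 17 were tested, and 2 were called higher in shHIF2A, 2 higher in shJUNs, and 1 higher and 2 lower in shYAPTAZ, against the same shares of all genes. ATP5MC1, a mitochondrial ATP synthase subunit beside HOXB, had 231, 232 and 272 CPM in shHIF2A, 300, 277 and 333 CPM in shJUNs, 109, 131 and 145 CPM in shYAPTAZ, and 89.7, 148 and 120 CPM in parental cells. It rose by 1.04 ± 0.17 in shHIF2A (log2, adjusted p = 0.000194, edgeR) and 1.34 ± 0.17 in shJUNs (7.5e-06), under all alternatives in both. In shYAPTAZ it stood at 0.11 ± 0.17 (0.69). EVX1, EVX2, PRAC1 and PRAC2 next to the 5′ ends had no counts.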

How the data were processed

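RNA of 12 libraries (4 lines of 786-O, 3 technical replicates each per the labels) was measured by BRB-seq. Unnormalized counts per gene were deposited, which the authors made with Trim Galore and STAR on hg38 per the submitters' processing notes. The sources used here do not give the counting program, its strand setting, the annotation release or the handling of molecular identifiers. The entry of 1 gene was split across 3 lines and was left out, which left 62702 genes. A table of gene IDs and symbols named 62624 of them and found all 39 HOX genes.

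Counts were analysed with edgeR 4.0.16 in R 4.3.3 (filterByExpr by group, TMM scaling, a robust quasi-likelihood model of the 4 group means over all 12 libraries, Benjamini-Hochberg adjustment over the 12301 genes kept). The common dispersion of 0.0628 equals a spread of 25.1% between libraries. Between replicates of a line, chi-squared per degree of freedom ran from 4.91 to 20.2 in the 12 pairs, so no library was a repeat deposit. CPM are scaled by TMM, SEs are on the log2 scale, and floors of 3 counts cover counting error only. The script was tested on simulated data. Shared exonic bases, including the last 500 of each gene, were counted from the exon coordinates deposited with the counts. GENCODE release 29 gave the gene types only, and promoters came from a set of RefSeq promoters.

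Alternatives were edgeR with RLE size factors, DESeq2 1.42.0, limma-voom 3.58.1, no filter, a replicate block, only the 6 libraries of a comparison, and leaving out each library. Values in every library were given for HOX genes averaging 10 CPM or more in a line or called in any test, and of each companion list at most 3 called genes per comparison. Members, lists and rules were chosen with earlier results of these data known. Some genes that enter the counts and sums are not reported here by name or in the figures of single genes.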

Additional observations from a re-analysis of the deposited data

How the results depend on the processing

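Of the 30 calls of a HOX gene in a pairwise comparison, 15 held under every alternative that could be fitted, and 0 changed direction. A further 16 pairs of gene and comparison were called only under an alternative. In shHIF2A against parental, 5 HOX genes were called, against 8 with no filter on low counts and 8 with the replicate block. In shJUNs against shHIF2A, 4 were called, against 7 with only the 6 libraries compared, and in shYAPTAZ against shJUNs 4, against 2 with those 6 libraries. Leaving out each library in turn gave 3 to 8 in shHIF2A, 1 to 5 in shJUNs and 7 to 11 in shYAPTAZ against parental. It gave 1 to 4 in shJUNs and 2 to 4 in shYAPTAZ against shHIF2A, 3 to 5 in shYAPTAZ against shJUNs, and 8 to 12 for a difference among the 4 lines. The causes were not tested. Same-numbered libraries deviated together weakly for replicates 1 and 3, with correlations of deviations from 0.0401 to 0.22. For replicate 2 the correlations ran from -0.00955 to 0.0131. Of all 18 pairs 5 were above 0.1, and 8 of 12 libraries correlated best with their own number. Not every pair was above 0.1, and the labels give the numbers no meaning, so they were not taken as pairs. With the replicate block, calls over all genes were 2878 in place of 2293 in shHIF2A, 2893 in place of 2370 in shJUNs and 3508 in place of 3113 in shYAPTAZ against parental. Against parental the block added calls of HOXA5 (adjusted p = 0.0163), HOXA10 (0.0155) and HOXD8 (0.0428) in shHIF2A, HOXB3 (0.0405) and HOXC8 (0.0378) in shJUNs, and HOXA5 (0.0338) in shYAPTAZ (edgeR). RLE size factors, DESeq2 and limma-voom kept each count of called HOX genes within 1.5 times. Genes under about 1 CPM, such as HOXB13 and HOXC11, are limited by depth.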
